A study of Mus musculus with 2 samples.

Results

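To describe where risk genes for autism and related neurodevelopmental disorders are expressed in the embryonic forebrain, 33 such genes were followed through single-cell transcriptomes of the mouse dorsal telencephalon at embryonic day 16.5. The genes were taken from a list of symbols, and each symbol matched exactly 1 of the 32285 genes in the files. By their main role, 12 regulate chromatin or general transcription, 5 are sequence-specific transcription factors, 8 act in signalling, growth control and protein turnover, and 8 belong to the membrane, the synapse or the cytoskeleton. The samples were 2 libraries of wild-type (WT) embryos, named WT replicate 1 and WT replicate 6, from a series set up around deletion of Dot1l with the Emx1-Cre line. The genotype on the label is WT, no treatment is named, and whether these embryos carried the Cre or a floxed allele is not given. Knockout embryos were not analysed here, so every comparison is between cell classes of the same libraries.

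Many disorders linked to these genes arise when a single gene copy is lost or altered, so the amount of product in a given cell matters. Several of the chromatin genes encode parts of remodelling complexes (Arid1b, Chd8, Adnp) or histone methyltransferases (Ash1l). The transcription factors Foxp1, Foxp2, Tcf4, Myt1l and Bcl11a (also known as Ctip1) guide neuronal identity and layer formation. The membrane group includes the sodium channel Scn2a, the ankyrins Ank2 and Ank3, which anchor channels to the spectrin skeleton, and the postsynaptic scaffolds Shank2 and Shank3. Cortical excitatory neurons arise from radial glial cells (RGCs), largely through intermediate progenitor cells (IPCs), whereas cortical interneurons migrate in from the medial and caudal ganglionic eminences (MGE and CGE).

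The files held 14136 and 13046 cells with 74930397 and 68964234 unique molecular identifiers (UMIs, each marking 1 captured mRNA molecule). After filters on depth, mitochondrial content and doublets, 7219 and 7352 cells were left. Of these, 44.7% and 47.6% met exactly 1 of 19 marker gates, none of which used a gene of the list. Levels are given as CPM, the UMIs of a gene in parts per 1000000 of the class sum. Of 8 marker sets not used to gate the class they mark, 7 were highest in that class in both libraries. For the excitatory set (Mef2c, Camk2b, Sla) any excitatory class counted, and layer 6 was highest. Newborn excitatory neurons held only 88.1 and 105 CPM of this set, so it does not check their gate. The separation was clear for the endothelial genes Tek and Tie1, at 536 and 642 CPM in endothelial cells and at most 29.8 CPM elsewhere. The MGE set (Nxph1, Erbb4) was nearly as high in CGE interneurons, at 12682 and 13697 CPM, as in MGE interneurons, at 14956 and 16577 CPM. The CGE set (Calb2, Nr2f1) was higher in Cajal-Retzius cells, at 405 and 490.0 CPM, than in CGE interneurons, at 315 and 349 CPM. Although the tissue is named dorsal telencephalon, ganglionic eminence progenitors and striatal neurons were present, with 484 progenitors, 135 D1-type and 333 D2-type striatal neurons against 246 dorsal RGCs. The libraries shared 59 cell barcodes.

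UMIs were summed per library and class, so that each class had 2 values. Pairs of values are in the order WT replicate 1, WT replicate 6, and means carry the SD over both (n = 2). The study describes using embryos of several litters in general, but the labels do not say from which embryos or litters these libraries came, so p-values measure only the spread between the libraries. Where values of called genes are said not to overlap between classes, this is description only. Passing with 2 sums per class makes it likely, and its share over all genes was not computed. A level per class does not separate fewer expressing cells from less RNA per cell. Only 10 and 4 oligodendrocyte precursors were gated, and they were left out, as were erythroid cells. The microglia sums include cells with a high doublet score, because the score removed most gated microglia.

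Across 17 classes, the 33 genes ranged from broadly expressed to class-restricted. The ratio of the highest to the lowest class mean had a median of 3.31 among the chromatin genes and 3.22 among the signalling genes, against 41.1 among the 5 transcription factors. The groups overlapped, with 20.7 for Asxl3 and 14.8 for Auts2 among the chromatin genes and 14.2 for Foxp1 and 15.4 for Tcf4 among the factors. The ratio was not computed over all genes. The most even gene was Tsc2, a subunit of the complex that restrains mTOR signalling, whose class means lay between 14.8 and 23.8 CPM. Foxp2 covered a range of 164-fold, from 14.6 CPM in upper-layer neurons to 2398 CPM in D1 striatal neurons. Among the membrane genes, the lowest class was always endothelial cells, mural cells, fibroblasts or microglia. Scn2a and Shank2 held only 3 and 1 UMIs in endothelial cells, their lowest class, so no median ratio is given for the group. Dpysl2 was not near the floor in any class and covered a range of 4.72-fold, from 77.6 CPM in fibroblasts to 366 CPM in upper-layer neurons. The same class was highest in both libraries for 15 of 33 genes, and for 13 genes the values of the top class and the next did not overlap between libraries. Neither count was made over all genes, so whether they are unusual was not tested.

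**Figure D1:**
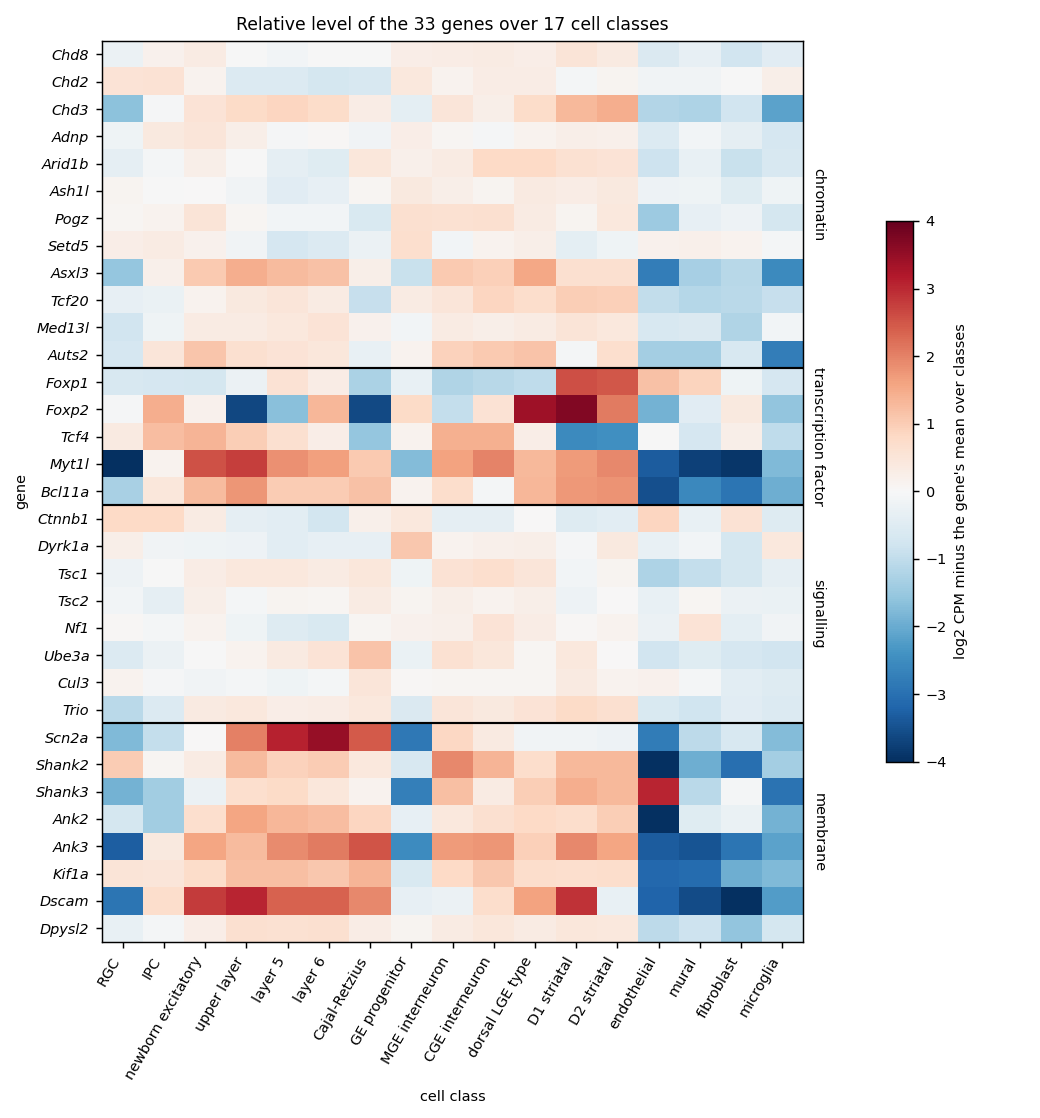
Relative level of the 33 genes (rows, grouped by role) over 17 cell classes (columns); colour is the mean log2 CPM of both libraries minus the gene's mean over the classes. Chromatin and signalling genes are mostly pale, whereas Foxp2, Myt1l, Scn2a, Ank3 and Dscam range from dark blue to dark red.

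Which genes differed between RGCs and IPCs was tested first, with edgeR's quasi-likelihood test; here and in every later comparison p-values were adjusted by Benjamini-Hochberg across the full set of genes in the fit. Of 32 genes tested (Shank3 had too few counts), 15 were higher in IPCs, 2 were lower and 15 did not pass. Of all 11286 genes tested, 41.7% were called, 19.7% as higher in IPCs and 22.0% as lower. Among the 1850 tested genes with a span of 100 kb or more, 562 were higher and 604 lower. The median log2 difference was 0.33 over the 32 genes and 0.02 over all genes. Of 60 further risk genes of the same kind, 59 were tested, 27 were higher and 8 lower.

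The largest difference was that of Myt1l, a zinc finger factor that represses non-neuronal programmes in neurons. Its level was 16.1 and 22.0 CPM in RGCs and 358 and 318 CPM in IPCs, a log2 difference of 4.20 ± 0.17 (SE; adjusted p = 8.26e-10). Ank3, which organizes the axon initial segment, had 24.6 and 39.7 CPM in RGCs and 409.9 and 403 CPM in IPCs (log2 difference 3.71 ± 0.17, adjusted p = 2.95e-09). The adhesion molecule Dscam was at 19.5 and 2.84 CPM in RGCs and at 107 and 89.7 CPM in IPCs. Its log2 difference of 3.29 ± 0.36 (adjusted p = 9.11e-06) was 2.42 within WT replicate 1 and 4.82 within WT replicate 6. For all 3 genes, both IPC values lay above both RGC values. Asxl3, a Polycomb-associated chromatin gene, was higher by 1.84 ± 0.15 on the log2 scale (adjusted p = 6.06e-07), from 31.4 and 34.0 CPM in RGCs to 113 and 111 CPM in IPCs.

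The 2 genes that were lower in IPCs both belong to the membrane group. Shank2 had 68.8 and 69.5 CPM in RGCs and 39.1 and 34.2 CPM in IPCs (log2 difference -0.84 ± 0.17, adjusted p = 0.00109). Ank2 went from 332 and 327 CPM to 209 and 204 CPM (log2 difference -0.60 ± 0.12, adjusted p = 0.00105). The groups did not overlap for either gene. By role, 7 of 12 chromatin genes and 4 of 5 transcription factors were higher in IPCs, but only 2 of 8 signalling genes, Trio and Ube3a. RGCs carried a median of 4 of 10 cell-cycle markers per cell and IPCs 1. Among progenitors with few cell-cycle markers, 15 genes were called, all of them among the 17 (Chd8 and Ube3a were lost).

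Newborn excitatory neurons, gated on markers such as Neurod1 and Unc5d and not assigned to a layer, were then compared with IPCs. More genes of the list were higher in the neurons than in the progenitors: 20 were higher, 3 were lower and 10 did not pass. Of 10996 genes tested, 29.8% were called, 14.7% as higher in the neurons and 15.1% as lower. The median log2 difference was 0.39 over the 33 genes and -0.0024 over all genes. The list is rich in long genes, with a median span of 129.0 kb and 20 of 33 genes at 100 kb or more. Among all 1781 tested genes of that length, 626 were higher and 321 lower, with a median of 0.19. Of the 60 further risk genes, 23 were higher and 4 lower.

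In these neurons Myt1l reached 1766 and 1834 CPM, a log2 difference from IPCs of 2.48 ± 0.10 (adjusted p = 6.99e-08). Dscam was at 392 and 445 CPM (log2 difference 2.16 ± 0.12, adjusted p = 4.18e-07). Ank2, which was lower in IPCs than in RGCs, had 855 and 879 CPM in newborn neurons (log2 difference from IPCs 2.14 ± 0.10, adjusted p = 1.32e-07), and Ank3 reached 929 and 924 CPM (1.26 ± 0.09, adjusted p = 2.88e-06). In each case both neuron values exceeded both IPC values. All membrane genes but Shank2 were higher in the neurons, including Kif1a, a kinesin motor for synaptic vesicle precursors, and Dpysl2, a tubulin-binding protein of growing axons. Shank2 was at 35.8 and 50.9 CPM and did not pass (adjusted p = 0.24). With DESeq2, 4 membrane genes were higher in place of 7, and with stricter gates 3, in both cases with Ank2, Ank3 and Dscam among them.

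The 3 genes with lower levels in newborn neurons were Foxp2, Ctnnb1 and Chd2. Foxp2 had 471 and 539 CPM in IPCs and 196 and 211 CPM in newborn neurons (log2 difference -1.24 ± 0.10, adjusted p = 6.5e-06). Ctnnb1, which encodes the Wnt effector and adhesion protein beta-catenin, had 318 and 349 CPM in IPCs and 254 and 224 CPM in newborn neurons (-0.41 ± 0.10, adjusted p = 0.0113). The chromatin remodeller Chd2 had 193 and 203 against 132 and 163 CPM (-0.35 ± 0.11, adjusted p = 0.0315). None of the 3 overlapped between the classes. With DESeq2 12 genes were called instead of 23, and with stricter gates 11, in both cases without Ctnnb1 and Chd2. With IPCs limited to cells with few cell-cycle markers 16 were called, without Kif1a, Nf1, Pogz, Scn2a, Shank3, Tsc2 and Ube3a.

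**Figure D2:**
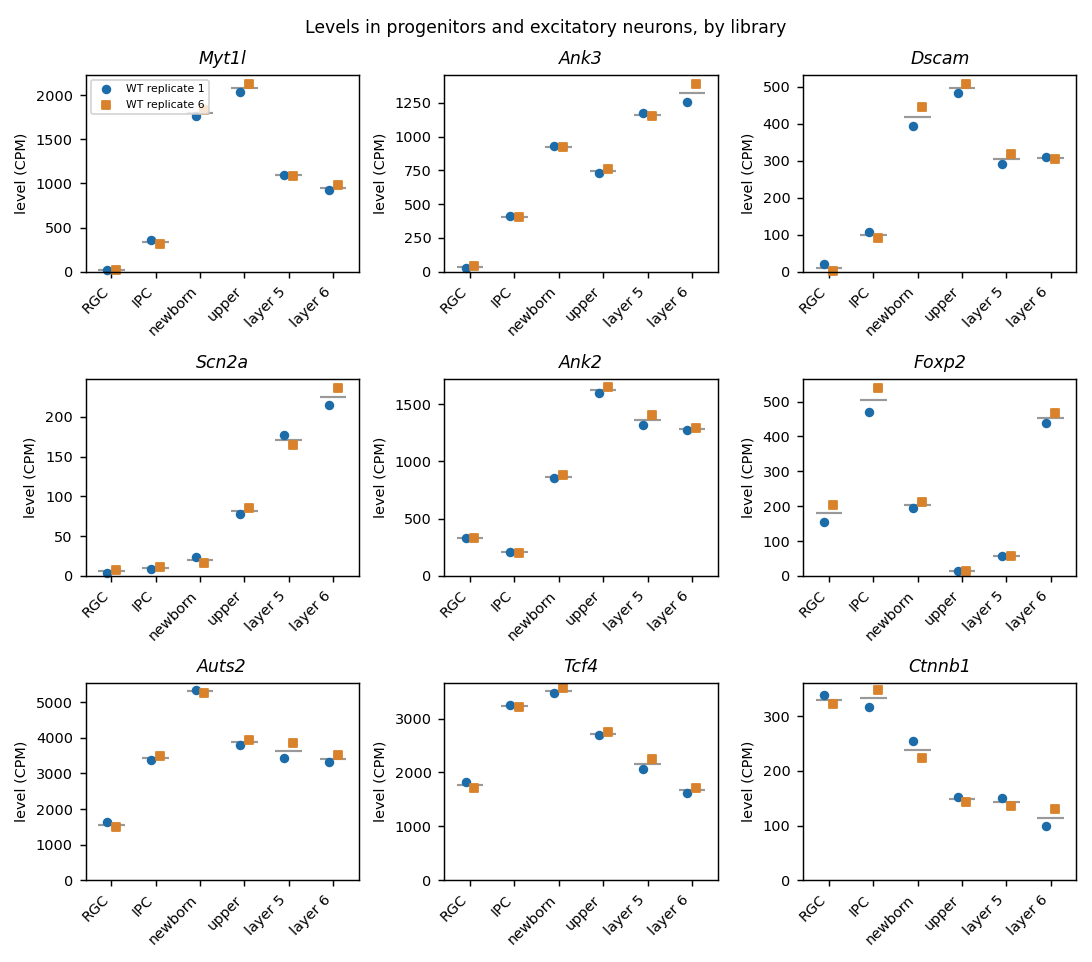
Level in CPM (vertical axes, from 0) of 9 genes in RGCs, IPCs, newborn, upper-layer, layer 5 and layer 6 neurons; points are the libraries and bars their mean. Myt1l and Dscam peak in upper-layer neurons and Scn2a in layer 6, while Ctnnb1 is highest in the progenitors.

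Deep-layer neurons (layers 5 and 6 pooled) were next compared with newborn excitatory neurons. The newborn cells were not assigned to a layer. Maturation and layer identity can both differ between these classes and cannot be told apart here. Here 7 of 8 membrane genes were higher in deep-layer neurons and 1 was lower, whereas 7 of 12 chromatin genes were lower and none was higher. Over the whole list, 10 genes were higher, 12 lower and 11 did not pass. Of 11223 genes tested, 29.0% were called, 16.2% as higher and 12.8% as lower. Genes of 100 kb or more, 1869 in all, gave 626 higher and 424 lower. The median log2 difference was 0.57 for the membrane genes, -0.39 for the chromatin genes and 0.01 for all genes. Of the 60 further risk genes, 15 were higher and 16 lower.

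Scn2a, the sodium channel that carries early action potentials in excitatory neurons, showed the largest difference of the list. It was at 23.9 and 16.6 CPM in newborn neurons and at 198 and 206 CPM in deep-layer neurons (log2 difference 3.37 ± 0.15, adjusted p = 1.29e-06). Foxp1 was higher as well, at 226 and 233 against 479 and 523 CPM (1.18 ± 0.10, adjusted p = 3.92e-05). The scaffolds followed with smaller differences: Shank3 had 10.2 and 12.7 against 21.7 and 19.7 CPM (0.91 ± 0.24, adjusted p = 0.0221), and Shank2 had 35.8 and 50.9 against 61.9 and 74.3 CPM (0.70 ± 0.17, adjusted p = 0.0156). Values of the classes did not overlap for any of the 4.

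The largest difference in the other direction was that of Ctnnb1, with 254 and 224 CPM in newborn neurons and 121 and 132 CPM in deep-layer neurons (-0.86 ± 0.11, adjusted p = 0.000418). Tcf4, a basic helix-loop-helix factor, had 3476 and 3566 against 1817 and 1946 CPM (-0.85 ± 0.09, adjusted p = 0.000164). Myt1l, at 999 and 1027 CPM in deep-layer neurons, was lower by 0.77 on the log2 scale (SE 0.10, adjusted p = 0.000367 for the difference of -0.77), and Chd2, at 77.3 and 95.5 CPM, differed by -0.72 ± 0.14 (adjusted p = 0.00441). Dscam was the membrane gene that was lower (-0.39 ± 0.11, adjusted p = 0.0223). The other chromatin genes called as lower were Ash1l, Adnp, Auts2, Pogz, Arid1b and Setd5, with log2 differences from -0.35 to -0.69. With DESeq2 and with stricter gates 14 genes were called in place of 22. With DESeq2, 3 membrane genes were higher (Scn2a, Ank2 and Ank3), none was lower, and 4 chromatin genes were lower (Arid1b, Auts2, Chd2 and Setd5). With stricter gates, 4 membrane genes were higher, the same 3 and Kif1a, and 2 chromatin genes were lower, Arid1b and Auts2. Dscam was also not called in a single fit of all classes.

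The genes at both ends of this comparison also differ in the sequence before their first listed start. The pair is shown here as a chosen example of unlike promoters in the list. For both genes 2 starts are listed, and only the window of the first is given. Given are the 250 bases before the first listed start of each gene, 5′ to 3′ on the gene's strand, from RefSeq on build GRCm38.p6, with CG dinucleotides in capitals. The Scn2a gene lies on chromosome 2 (65620764 to 65767447, plus strand), its window at chr2:65620519-65620768, which reaches a few bases into the listed gene because the starts of the tables differ. Ctnnb1 lies on chromosome 9 (120933400 to 120960507, plus strand), its window at chr9:120933150-120933399.
Scn2a: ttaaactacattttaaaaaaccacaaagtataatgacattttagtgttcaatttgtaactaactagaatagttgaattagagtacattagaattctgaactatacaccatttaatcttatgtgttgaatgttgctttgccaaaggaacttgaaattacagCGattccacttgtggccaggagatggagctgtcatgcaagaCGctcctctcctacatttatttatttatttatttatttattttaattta
Ctnnb1: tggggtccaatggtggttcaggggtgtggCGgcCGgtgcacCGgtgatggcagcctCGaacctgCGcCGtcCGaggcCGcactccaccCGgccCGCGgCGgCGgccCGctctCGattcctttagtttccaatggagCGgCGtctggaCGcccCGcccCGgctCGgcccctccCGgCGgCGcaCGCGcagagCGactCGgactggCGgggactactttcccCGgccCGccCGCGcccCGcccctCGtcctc
The Scn2a window holds 2 CG dinucleotides and 29.6% G or C, and 29.0% of all 32851 promoters listed hold 2 or fewer. The Ctnnb1 window holds 35 at 74.8% G or C, and 2.97% of all promoters hold as many or more. Of the 33 genes, 23 had 37 promoters in the table, with a median of 16 CG dinucleotides against 6 over all promoters. No entry was matched for Ank3, Ash1l, Foxp2, Shank2, Auts2, Asxl3, Dpysl2, Chd2, Tcf4 and Chd3.

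**Figure D3:**
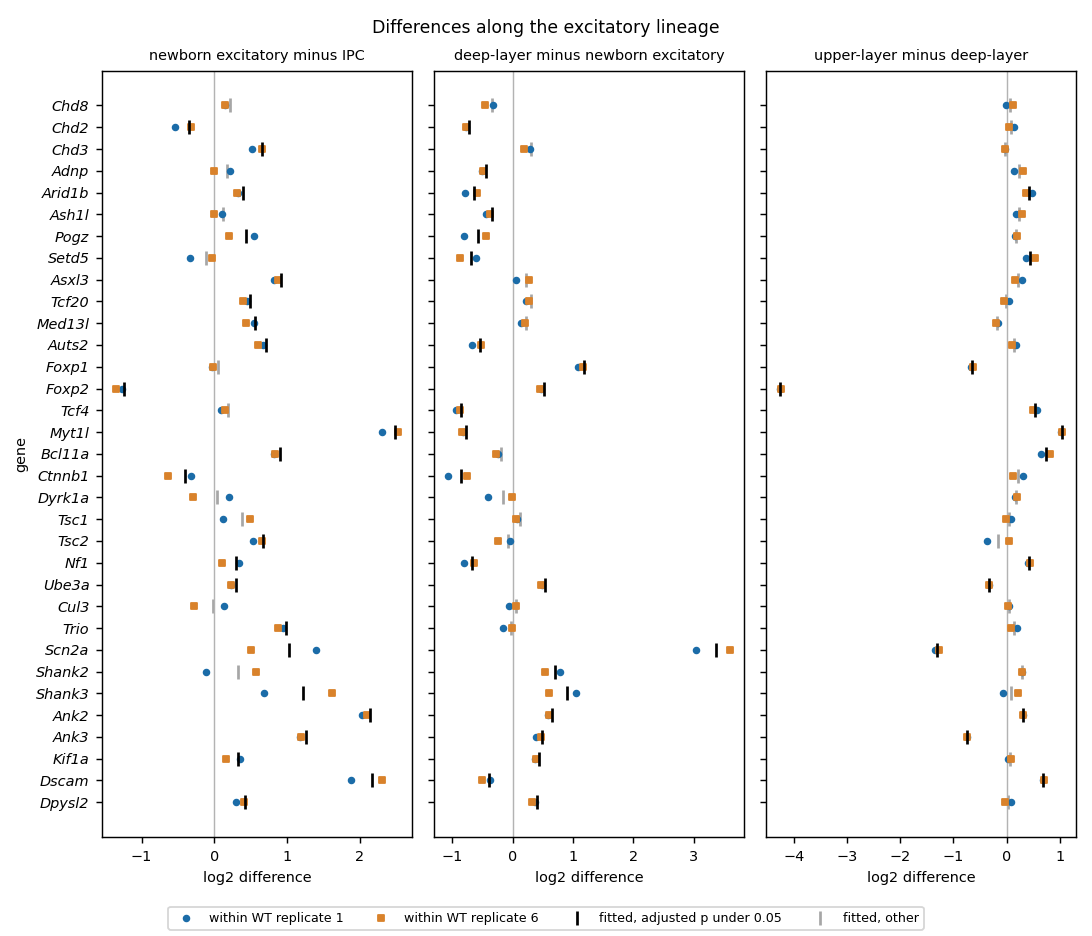
Log2 differences (horizontal axes) of each gene in 3 comparisons among IPCs and excitatory neurons, which are not successive stages of the same cells. Coloured points are the differences within each library, vertical ticks the fitted values, black where the adjusted p was under 0.05. Scn2a stands out in the middle panel at 3.37 and Foxp2 in the right panel at -4.26.

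Upper-layer neurons, which are born later than deep-layer neurons and express Cux2, were compared with deep-layer neurons to ask how the list divides between layers. All 5 transcription factors differed: Myt1l, Bcl11a and Tcf4 were higher in upper-layer neurons, and Foxp1 and Foxp2 were lower. Over the list, 8 genes were higher, 5 lower and 20 did not pass. Of 12565 genes tested, 16.3% were called, 6.09% as higher in upper-layer neurons and 10.2% as lower. Among the 1983 genes of 100 kb or more 824 were called, 274 as higher and 550 as lower. Of the 60 further risk genes, 7 were higher and 13 lower.

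Foxp2 had 14.1 and 15.2 CPM in upper-layer neurons and 270.5 and 289.7 CPM in deep-layer neurons (log2 difference -4.26 ± 0.10, adjusted p = 8.99e-08). Scn2a, at 78.4 and 84.9 against 198 and 206 CPM, differed by -1.31 ± 0.08 (adjusted p = 9.68e-06). Both genes were far apart between the classes compared with the distance between libraries. Ank3 had 729.7 and 764 CPM in upper-layer neurons (-0.75 ± 0.08, adjusted p = 0.000191) and Foxp1 303 and 338 CPM (-0.65 ± 0.09, adjusted p = 0.00138).

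In the other direction, Myt1l had 2037 and 2127 CPM in upper-layer neurons, a log2 difference from deep-layer neurons of 1.04 ± 0.07 (adjusted p = 1.49e-05). Bcl11a, a zinc finger repressor needed for layer identity, had 913 and 976 against 578 and 549.9 CPM (0.74 ± 0.08, adjusted p = 0.000334). Dscam had 483 and 508 against 301 and 312 CPM (0.69 ± 0.09, adjusted p = 0.000582), and Tcf4 had 2693 and 2751 CPM in upper-layer neurons (0.53 ± 0.07, adjusted p = 0.000777). For Myt1l and Dscam, upper-layer neurons had the highest mean of the 17 classes. The oligodendrocyte precursors left out had more Dscam, 551 and 1045 CPM in sums that include cells with a high doublet score. Cells of both classes come from the same libraries, and with the library as a block 20 genes passed instead of 13. The 7 added were Adnp, Ash1l, Asxl3, Auts2, Ctnnb1, Med13l and Shank2.

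Within the deep layers, Foxp2 was the gene of the list that passed between layer 5 and layer 6. As 1 of 33 genes, this was near the share called over all genes. Layer 5 neurons, gated on Fezf2, had 57.3 and 57.4 CPM and layer 6 neurons, gated on Hs3st4, had 439.6 and 466 CPM (log2 difference -3.00 ± 0.14, adjusted p = 1.13e-05). Of 10150 genes tested, 3.17% were called, 0.916% as higher in layer 5 and 2.26% as lower. Genes of 100 kb or more, 1751 in all, gave 55 higher and 147 lower. The other 32 genes had log2 differences between -0.42 and 0.36. At these extremes were Scn2a (177 and 165 CPM in layer 5, 215 and 237 CPM in layer 6, adjusted p = 0.16) and Tcf4 (2067 and 2255 against 1619 and 1711 CPM, adjusted p = 0.11). With the library as a block, 3 genes passed, Foxp2 and these 2. Of 59 further risk genes tested, Cacna1e, Kcnma1 and Satb1 were lower in layer 5 and none was higher.

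MGE interneurons, inhibitory neurons gated on markers such as Lhx6, Sst and Maf, were compared with deep-layer excitatory neurons. Whether these cells lay in the cortex or outside it was not tested. Of the chromatin genes, 6 were higher in interneurons and none lower, while 6 membrane genes were lower and 1, Shank2, was higher. With DESeq2 this was 4 chromatin genes higher and 3 membrane genes lower, without Auts2, Setd5, Ank3, Dpysl2 and Kif1a. With stricter gates 4 membrane genes were lower, without Dpysl2 and Kif1a, and Chd3 was called as lower. With the library as a block 7 chromatin genes were higher and 3 lower. Over the list, 10 genes were higher, 9 lower and 14 did not pass. Of 11742 genes tested, 32.1% were called, 15.8% as higher in interneurons and 16.3% as lower. Among the 1941 genes of 100 kb or more 1163 were called, 664 as higher and 499 as lower. The median cell of the MGE gate held 4196 and 3894 UMIs, against 11563 and 10488 in layer 5 and 9362 and 8666 in layer 6. The set of Mef2c, Camk2b and Sla, kept out of the gates, summed to 954 and 1021 CPM in MGE interneurons. It summed to 940.4 and 911 CPM in layer 5 and 1587 and 1405 CPM in layer 6. The study names Mef2c as a factor in specifying parvalbumin interneurons, so the set does not mark excitatory neurons alone. The part of the depth gap and of these markers in the result was not tested. Of 59 further risk genes tested, 21 were higher and 10 lower.

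Dscam had 59.7 and 43.9 CPM in MGE interneurons against 301 and 312 CPM in deep-layer neurons (log2 difference -2.61 ± 0.15, adjusted p = 3.86e-06). Scn2a had 42.7 and 29.1 CPM in interneurons (-2.53 ± 0.16, adjusted p = 7.77e-06), Foxp1 150.4 and 175 CPM (-1.67 ± 0.11, adjusted p = 1.18e-05) and Foxp2 123 and 70.8 CPM (-1.57 ± 0.21, adjusted p = 0.00072). For Foxp2 the libraries were further apart than for the other 3, though both interneuron values lay below both deep-layer values. Ank2, Ank3, Kif1a, Dpysl2 and Bcl11a were lower by less than 1 on the log2 scale.

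Tcf4 had 3508 and 3860.4 CPM in MGE interneurons, above the 1817 and 1946 CPM of deep-layer neurons (0.92 ± 0.09, adjusted p = 0.000106). Shank2 had 123 and 137 against 61.9 and 74.3 CPM (0.89 ± 0.13, adjusted p = 0.000964), its highest values in any class. Nf1, a GTPase-activating protein for Ras, had 234 and 207 against 127 and 127 CPM (0.75 ± 0.11, adjusted p = 0.00121). Arid1b, a subunit of the BAF chromatin remodelling complex, had 335 and 343 against 192 and 209 CPM (0.71 ± 0.10, adjusted p = 0.000963). None of the 4 overlapped between classes. With DESeq2, 12 genes of the list passed instead of 19.

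Interneurons of CGE and MGE type were compared next. Of 10059 genes tested, 6.5% were called, 3.18% as higher in the CGE type and 3.32% as lower, and of the 33 genes 3 passed, a share near this background. Of 59 further risk genes tested, 1 was higher in the CGE type and 7 lower, and of 1774 genes of 100 kb or more 388 were called. Foxp2 had 289 and 252 CPM in CGE interneurons and 123 and 70.8 CPM in MGE interneurons (log2 difference 1.48 ± 0.22, adjusted p = 0.00136). Dscam had 89.5 and 105 against 59.7 and 43.9 CPM (0.90 ± 0.20, adjusted p = 0.0192), and Bcl11a 217 and 316 against 482 and 418 CPM (-0.76 ± 0.17, adjusted p = 0.0224). In all 3 the values of the classes did not overlap. Tcf4 had a fitted log2 difference of 0.02 ± 0.12 (adjusted p = 0.98). With the library as a block, 5 genes passed, adding Arid1b and Myt1l, and with DESeq2 Foxp2 alone of the list. With stricter gates the log2 difference of Foxp2 was 0.83 and did not pass.

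Striatal neurons, which the gates split into a D1 type (Ebf1, Isl1, Drd1, Tac1) and a D2 type (Drd2, Six3, Penk), were pooled and compared with MGE interneurons. The largest differences belonged to the transcription factors, of which 3 were higher in striatal neurons and Tcf4 was lower. Over the list 7 genes were higher, 6 lower and 20 did not pass. Of 10691 genes tested, 16.4% were called, 7.7% as higher in striatal neurons and 8.73% as lower. Among the 1844 genes of 100 kb or more 737 were called, 321 as higher and 416 as lower. Of 59 further risk genes tested, 7 were higher and 8 lower.

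Foxp1, a forkhead repressor that marks the striatum, had 2274 and 2007 CPM in striatal neurons and 150.4 and 175 CPM in MGE interneurons (log2 difference 3.70 ± 0.12, adjusted p = 9.37e-09). Its relative Foxp2 had 1419.6 and 1103 against 123 and 70.8 CPM (3.68 ± 0.23, adjusted p = 6.97e-07). Tcf4 went the other way, with 279 and 222 against 3508 and 3860.4 CPM (-3.90 ± 0.13, adjusted p = 9.37e-09). Striatal neurons had the lowest Tcf4 values of any class, below the 521 and 433 CPM of Cajal-Retzius cells. Dscam had 151 and 182 against 59.7 and 43.9 CPM (1.65 ± 0.16, adjusted p = 3.04e-05), and Bcl11a 936 and 962 against 482 and 418 CPM (1.05 ± 0.11, adjusted p = 5.28e-05). Within the pool, D1 neurons had 404 and 493 CPM of Dscam. D2 neurons, at 45.8 and 50.9 CPM, lay between the values of MGE interneurons.

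Of the other genes with lower levels in striatal neurons, Scn2a had 13.5 and 22.6 against 42.7 and 29.1 CPM. Its log2 difference of -1.04 ± 0.29 (adjusted p = 0.0335) was -1.63 within WT replicate 1 and -0.35 within WT replicate 6. Shank2 had 73.6 and 97.3 against 123 and 137 CPM (-0.63 ± 0.14, adjusted p = 0.0112). The ubiquitin ligase Ube3a had 306 and 307 against 419 and 423 CPM (-0.48 ± 0.10, adjusted p = 0.0084). None of the 3 overlapped between the classes. Chd3, a subunit of the NuRD remodelling complex, was higher in striatal neurons, at 739.8 and 586 against 382 and 313 CPM (0.91 ± 0.15, adjusted p = 0.00116). With DESeq2, 6 genes of the list passed instead of 13, without Scn2a, Shank2 and Ube3a. With stricter gates Dscam, at 0.99, and Scn2a did not pass. These gates kept 5 and 6 D1 neurons and 71 and 71 D2 neurons.

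**Figure D4:**
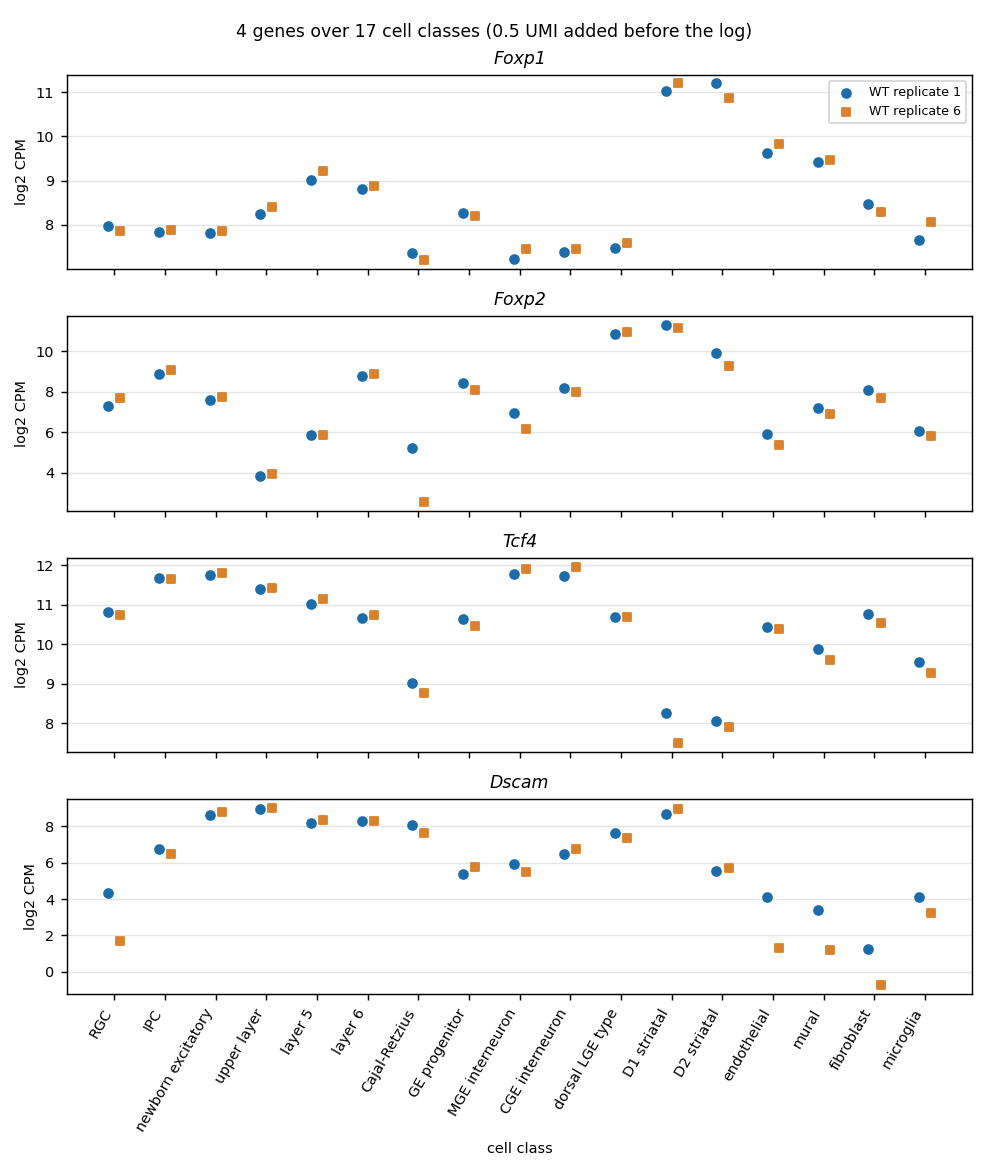
Log2 CPM (vertical axes) of Foxp1, Foxp2, Tcf4 and Dscam in 17 cell classes (horizontal axis); points are the libraries. Foxp1 is highest and Tcf4 lowest in both striatal types, whereas Foxp2 and Dscam separate D1 from D2 neurons.

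The D1 and D2 types themselves differed in 3 genes of the list. Of 8107 genes tested, 4.87% were called, 2.16% as higher in D2 neurons and 2.71% as lower. Among the 1566 genes of 100 kb or more 272 were called, 118 as higher and 154 as lower. Of 59 further risk genes tested, 1 was higher in D2 neurons and 5 lower. Dscam had 404 and 493 CPM in D1 neurons and 45.8 and 50.9 CPM in D2 neurons (log2 difference of D2 from D1 -3.22 ± 0.18, adjusted p = 4.46e-07). Foxp2 had 2528 and 2268 against 962 and 611 CPM (-1.62 ± 0.19, adjusted p = 0.000185). Auts2, a Polycomb-associated gene that also acts on the cytoskeleton, had 2379.9 and 2318 CPM in D1 and 3672 and 4139 CPM in D2 neurons (0.72 ± 0.11, adjusted p = 0.00181). Foxp1 had a fitted log2 difference of -0.08 and Tcf4 of 0.05, and neither passed (adjusted p = 0.91 and 0.97). Auts2 did not pass with stricter gates, at a log2 difference of 0.76.

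The difference in Dscam was also present in the share of cells with a UMI of the gene. With each cell thinned to 2000 UMIs, Dscam was detected in 42.1% ± 3.35 of D1 neurons and in 4.6% ± 2.17 of D2 neurons, against 0.909% ± 1.29 of endothelial cells (SD, n = 2). Without thinning the shares were 58.5%, 10.2% and 5.15%, with 2 and 2 D1 neurons and 2 and 5 D2 neurons too shallow to thin. Foxp2 was detected in 77.7% ± 4.44 of D1 and 33.1% ± 4.34 of D2 neurons after thinning, against 5.15% ± 3.0 of endothelial cells. Without thinning, these shares were 86.5%, 41.5% and 21.5%. Median depths were 5862 and 5337 UMIs for D1, 6263 and 4964 for D2 and 11595 and 14068 for endothelial cells.

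Finally, endothelial cells were compared with deep-layer neurons, as a class outside the neural lineage. Of the 33 genes, 23 were lower in endothelial cells, 4 were higher and 6 did not pass. Of 11621 genes tested, 58.6% were called, 29.9% as lower and 28.6% as higher. The median log2 difference was -1.27 over the list, -0.06 over all genes tested and -0.46 over the 1935 genes of 100 kb or more. Of the 60 further risk genes, 34 were lower and 6 higher. The set of Mef2c, Camk2b and Sla, which does not mark excitatory neurons alone, summed to 248 and 227 CPM in endothelial cells. It summed to 940.4 and 911 CPM in layer 5 and 1587 and 1405 CPM in layer 6. The gate markers of excitatory neurons, which the gates themselves keep apart, summed to 49.0 and 45.1 CPM in endothelial cells. Their part in the result was not tested.

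Shank3 had its highest values in endothelial cells, at 96.6 and 134 CPM against 21.7 and 19.7 CPM in deep-layer neurons (log2 difference 2.40 ± 0.20, adjusted p = 2.56e-06). The next class, D1 neurons, had 36.9 and 36.7 CPM. Ctnnb1 had 349.8 and 341 against 121 and 132 CPM (1.40 ± 0.15, adjusted p = 1.33e-05). The SET-domain gene Setd5 had 155 and 160.4 against 96.7 and 89.7 CPM (0.71 ± 0.14, adjusted p = 0.00165), and Foxp1 785 and 907 against 479 and 523 CPM (0.70 ± 0.16, adjusted p = 0.00354). Values did not overlap between the classes for any of the 4.

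Of the 8 membrane genes, 7 were lower in endothelial cells. Scn2a had 3 UMIs there in both libraries together, against 1166 in deep-layer neurons, a ratio of 89.6 of neurons to endothelial cells (exact 95% interval for counting error 30.6 to 435). Shank2 had 1 UMI against 392, a ratio of 90.4 (16.1 to 3579). Their fitted log2 differences of -6.49 and -6.42 depend on the prior count of the fit. Within WT replicate 1 and WT replicate 6, Scn2a differed by -5.87 and -6.36 and Shank2 by -6.51 and -4.89. Ank2 had 29.9 and 30.1 against 1291 and 1337 CPM (-5.50 ± 0.21, adjusted p = 1.02e-08), and Ank3 28.6 and 31.7 against 1221 and 1287 CPM (-5.43 ± 0.21, adjusted p = 1.1e-08). Dscam and Kif1a were also lower, but their log2 differences, -5.02 and -4.09, moved to -4.15 and -3.38 within WT replicate 1 and to -6.96 and -5.17 within WT replicate 6.

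**Figure D5:**
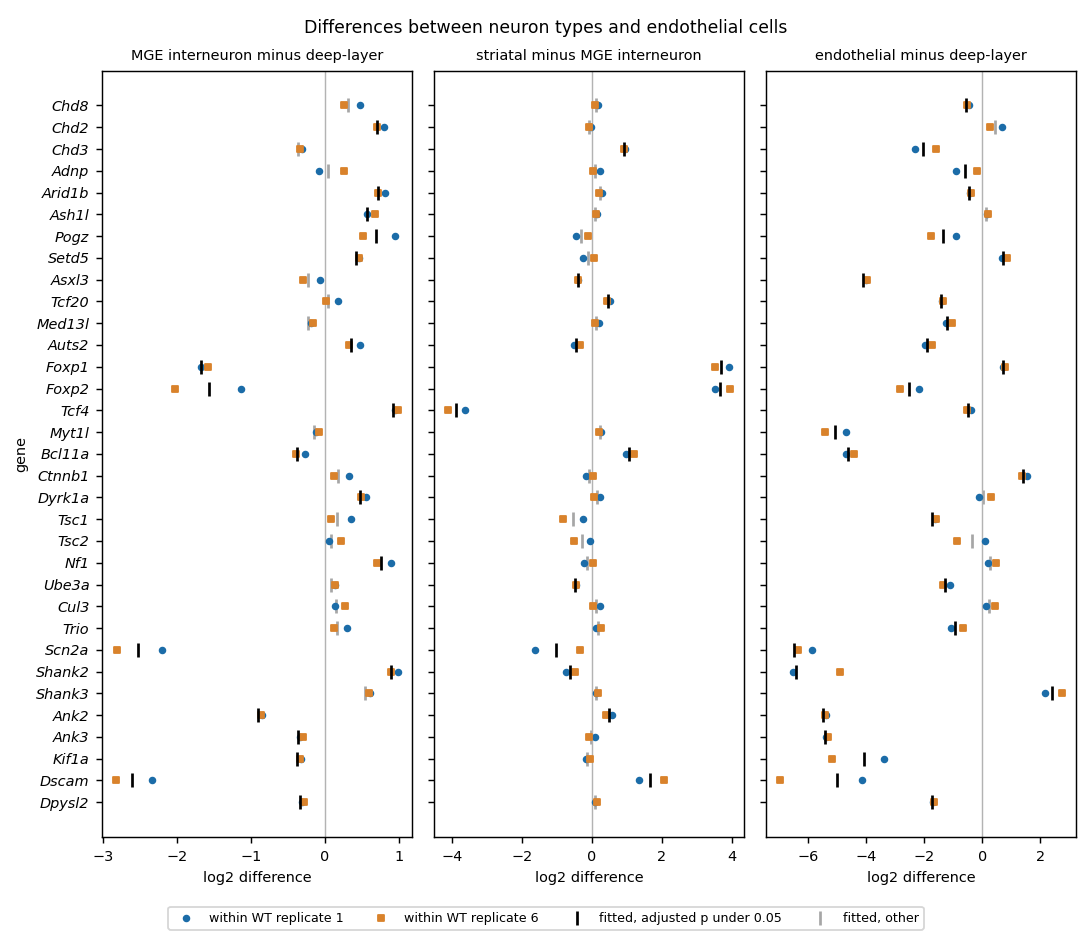
Log2 differences (horizontal axes) of each gene between MGE interneurons and deep-layer neurons, striatal neurons and MGE interneurons, and endothelial cells and deep-layer neurons; coloured points are the differences within each library, vertical ticks the fitted values, black where the adjusted p was under 0.05. In the right panel the membrane genes except Shank3 lie left of 0.

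Over all 10 comparisons, which share classes and are not independent, 141 of 329 tests of these genes passed. The share of all genes called is given with each comparison. In all 141 passing tests the difference had the same sign in both libraries. Passing with 2 sums per class makes such agreement likely, so it adds no support. The same holds for values of called genes that do not overlap between classes. Of the 33 genes, 32 passed at least once and 13 passed in 5 or more. Foxp2 passed in 10 and Dscam in 9, followed by Auts2, Bcl11a and Ank2 in 7 each. At the other end, Cul3, the scaffold of a ubiquitin ligase, did not pass in any comparison, although edgeR called 3.17% to 58.6% of all genes across them. Its class means lay between 93.0 CPM in microglia and 186 CPM in Cajal-Retzius cells. Tsc1, Tsc2 and Dyrk1a passed once each. Tsc1 was lower in endothelial cells (-1.72 ± 0.27, adjusted p = 0.000268), and Tsc2, at 14.9 and 14.7 CPM in IPCs and 21.6 and 23.2 CPM in newborn neurons, was higher in the latter (0.67 ± 0.22, adjusted p = 0.0438). This call of Tsc2 was lost with DESeq2, without TMM, without the low-count filter, in a single fit of all classes, with stricter gates and with IPCs of few cell-cycle markers.

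Several genes were highest in classes that entered no comparison, and their levels are given as a description. Dyrk1a, a kinase that controls cell-cycle exit, had 256 and 230.4 CPM in ganglionic eminence progenitors, above the 150.3 and 159 CPM of microglia, the next class. Setd5 likewise had its highest values there, at 225 and 223 CPM, followed by IPCs at 186 and 169 CPM. The oligodendrocyte precursors left out had 219 and 308 CPM of Setd5, again in sums that include cells with a high doublet score. Cajal-Retzius cells, the early-born reelin cells of the marginal zone, had the highest Ube3a, Ank3 and Kif1a. In these cells Ube3a was at 659 and 575 CPM, Ank3 at 1844 and 1743 CPM and Kif1a at 182 and 167 CPM. Ube3a shares its locus with the antisense RNA host Snhg14, and whether the counting used strand is not given in the sources used here. Foxp2 had its second highest values in dorsal LGE-type neurons, at 1836 and 1957 CPM, below D1 neurons and above D2 neurons without overlap.

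The genes not yet described are given by their class means. Chd8, a remodeller that binds promoters of many other risk genes, had class means between 44.5 CPM in fibroblasts and 108 CPM in D1 neurons. Adnp, a homeodomain protein of the ChAHP complex, ranged from 106 CPM in microglia to 239.6 CPM in newborn excitatory neurons, and the histone methyltransferase Ash1l from 133 to 244 CPM. Pogz, a zinc finger protein that binds heterochromatin protein 1, had 19.8 CPM in endothelial cells and 83.8 CPM in ganglionic eminence progenitors. Tcf20, a transcriptional coregulator, was highest in D1 and D2 neurons (289 ± 20.8 and 286 ± 37.4 CPM) without a clear order between them. Med13l, a Mediator kinase module subunit, reached 218 CPM in layer 6 and 64.2 CPM in fibroblasts. Trio, a guanine nucleotide exchange factor, was lowest in RGCs, at 109.6 and 107 CPM, and highest in D1 neurons, at 383 and 404 CPM.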

How the data were processed

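Single-cell 3' RNA-seq (10x Genomics chemistry version 3.1) was done on dissociated dorsal telencephalon of WT embryos. Embryonic day 16.5 is taken from the labels. The authors processed the reads with Cell Ranger 7.0.0, and per the labels the build was mm10. What was deposited are unnormalized UMI counts, by gene, for each barcode called as a cell. Annotation release, intron setting and strand setting are not given in the sources used here. If introns were counted, long genes gain counts. Each gene was compared only with itself between classes, which does not remove a difference between classes in the share of intronic UMIs. That share was not tested.

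The cell filter asked for 1500 to 60000 UMIs, of which less than 10% mitochondrial. A Scrublet-type score left out 920 and 857 likely doublets. Cells were assigned by gates on detected markers fixed for each class, with cells that met more than 1 gate left out. Not every gate marker is reported here. Counts were summed per library and class. The sums of the compared classes were tested with edgeR 4.0.16 (R 4.3.3; TMM, filterByExpr, quasi-likelihood, two-sided), with Benjamini-Hochberg adjustment over all genes and a threshold of 0.05. Each SE is the log2 difference over the root of F. A prior count of 0.5 entered the differences computed in a single library. The steps were tested on simulated counts. Class sums held between 381424 and 6788055 UMIs per library, microglia and oligodendrocyte precursors aside, and intervals cover counting error only.

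Each library supplied a sum for either class compared, which pairs the sums by design; same-library deviations correlated across genes with r from 0.123 to 0.324. Alternatives were DESeq2 1.42.0, no TMM, no low-count filter, the library as a block, a single fit of all classes, 3000 to 30000 UMIs with under 5% mitochondrial UMIs, 1 further marker per gate, doublets kept, progenitors with few cell-cycle markers, and each library alone. For shares of cells, each cell was thinned to 2000 UMIs. Gene positions and promoters are from RefSeq on GRCm38.p6, the patch release of mm10.

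The genes, gates, role groups and the list of 60 further risk genes were chosen with earlier results of these data known. All 33 genes are named. In each comparison, up to 4 called genes per direction with the largest log2 differences are given with values per library and the test. Further risk genes are counted, and named only where 5 or fewer passed. Genes described beyond this rule were chosen after their values were seen.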

Additional observations from a re-analysis of the deposited data

How the results depend on the processing

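Of 82 counts of called genes under alternatives, 70 stayed within 1.5 times the reported count, and the other 12 follow. DESeq2 called 12 in place of 23 (newborn neurons against IPCs), 14 in place of 22 (deep-layer against newborn neurons), 12 in place of 19 (MGE interneurons against deep-layer neurons), 1 in place of 3 (CGE against MGE interneurons) and 6 in place of 13 (striatal neurons against MGE interneurons). Stricter gates gave 11 and 14 in the first and the second of these. The library as a block gave 20 in place of 13 (upper-layer against deep-layer neurons), 3 in place of 1 (layer 5 against layer 6) and 5 in place of 3 (CGE against MGE interneurons). Without the low-count filter, the last 2 comparisons gave 2 and 5. The block ended no call of the 33 genes. Beyond those named above it added Dpysl2 and Dyrk1a (IPCs), Tcf4 (newborn neurons), Chd3, Chd8 and Tcf20 (deep-layer neurons), Asxl3, Chd3, Chd8, Med13l and Shank3 (MGE interneurons), Arid1b, Myt1l and Tsc1 (striatal neurons) and Chd2 (endothelial cells). Stricter gates also keep fewer cells, and the causes of these shifts were not tested. For the 60 differences given with values per library, 470 of 493 tested alternatives kept direction and call, 23 kept the direction only and 0 reversed. Leaving out a library leaves 1 sum per class and no test. None of the 120 values within a library changed sign, and 35 moved by more than 1 SD. Over all genes, counts beyond 1.5 times the reported one were, with DESeq2, 2721 in place of 4704 (IPCs), 1848 in place of 3277 (newborn neurons), 1762 of 3253 (deep-layer neurons), 1251 of 2049 (upper-layer neurons), 181 of 322 (layer 5 against 6), 1996 of 3774 (MGE interneurons), 383 of 654 (CGE interneurons), 909 of 1756 (striatal neurons) and 251 of 395 (D2 against D1). Stricter gates gave 1396 in place of 3277 (newborn neurons), 1296 of 3253 (deep-layer neurons), 213 of 322 (layer 5 against 6) and 86 of 395 (D2 against D1). The block gave 3188 for 2049 (upper-layer neurons), 753 for 322 and 625 for 395 in the last 2, where no low-count filter gave 685 and 621. Counts of Shank3 were too low for a test between IPCs and RGCs.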
